A study of Homo sapiens with 12 samples.

Results

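Compared here were 6 of the 12 libraries of a total RNA sequencing study of ES-2, an established cell line derived from an ovarian cancer: 3 libraries in which the mRNA-binding protein IGF2BP1 was knocked down (siI1) against 3 in which its paralog IGF2BP2 was knocked down (siI2). The 6 libraries were chosen by their titles, and each gene's difference is siI1 minus siI2, so a gene described as higher in siI1 was equally lower in siI2. The siI1 cells received an siRNA pool directed at IGF2BP1 and the siI2 cells one directed at IGF2BP2. The other 6 libraries are 3 that received control siRNAs (siC) and 3 that received a pool against IGF2BP3 (siI3). They entered the estimate of each gene's spread but not the difference, and their levels are given only to show where a gene stood without either knockdown. All groups are the same unmodified line, with the protein's mRNA lowered and not deleted. The sources used here do not give the sequences in each pool, the dose or the hours of treatment. Nothing in the labels says that replicates were grown or transfected separately, so the p-values speak only to the spread among these libraries, which may be technical.

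The IGF2BP family consists of closely related cytoplasmic proteins that bind RNA through RRM and KH domains and influence how long an mRNA lasts, where it is carried and how well it is translated. They are abundant in the embryo, and IGF2BP1 and IGF2BP3 are largely silent in most adult tissues but return in many carcinomas, where IGF2BP1 has been reported to keep its target mRNAs away from miRNA-directed decay. IGF2BP2 is made more widely in adult tissue. A direct comparison of both knockdowns asks which mRNAs respond differently to the loss of one paralog and of the other, against a shared background of siRNA treatment.

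Levels are in FPM, a fragment unit that the authors describe as normalized to library size, and ± is the SD over 3 libraries. The FPM of a library summed to 1000340 to 1043380 in siI1. In siI2 replicates 1, 2 and 3 the sums were 1167520, 982465 and 800026. The values were thus not scaled to library size alone, and the further factor differed most among the siI2 libraries. The siI1 libraries held 5988040 to 6719096 reads and the siI2 libraries 3299360 to 5483111, with siI2 replicate 3 the shallowest of all 12. A gene with 3 reads in a library stood at 0.466 to 0.513 FPM in siI1 and 0.551 to 0.727 FPM in siI2, and differences under those levels were not detectable. The share of reads taken by the signal recognition particle RNA RN7SL was 20% ± 4.84 in siI1 and 25.3% ± 2.5 in siI2, and the exact permutation test gave p = 0.3 (two-sided, smallest possible 0.1). Epithelial and mesenchymal genes of the line were abundant, with KRT7 at 874 ± 105 FPM in siI1 and 643 ± 156 in siI2 and VIM at 484 ± 209 and 353 ± 183. Several genes often used to mark ovarian carcinomas were nearly absent: WFDC2 was at 0 in all 6 libraries, and WT1, MUC1, MSLN and SOX17 had too few reads to be tested. In bulk RNA, fewer cells expressing a gene and less of its RNA per cell cannot be told apart.

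Each siRNA pool lowered its own target, and neither lowered the other's. IGF2BP1 mRNA was at 10.7, 11.7 and 10.8 FPM in the 3 siI1 libraries and at 58.6, 53.8 and 54.3 in the 3 siI2 libraries, against 41.9, 49.1 and 40.7 in siC. The siI1 values lay far below all 9 others that are not siI1, and the difference between the knockdowns was -2.23 on the log2(FPM + 1) scale (SE 0.18, limma adjusted p = 4.9e-06). IGF2BP2 mRNA was at 86, 97.1 and 84.1 FPM in siI1 and 9.37, 11.8 and 19.2 in siI2, against 74.8, 81.4 and 83.9 in siC, a difference of 2.70 (SE 0.22, limma adjusted p = 4.9e-06). The remaining IGF2BP2 mRNA was highest in siI2 replicate 3, and the difference was 2.97 without that library. The third paralog, IGF2BP3, was at 14.9, 17.4 and 13.3 FPM in siI1 and 11.1, 18.2 and 15.5 in siI2, and the ranges overlapped (difference 0.04, limma adjusted p = 0.972). HMGA2, an oncofetal chromatin protein and a classic target of let-7, and MYC, a transcription factor whose mRNA IGF2BP1 binds, also overlapped between the groups, with differences of -0.07 and -0.06 (limma adjusted p = 0.962 and 0.94). LIN28B, the let-7 antagonist, had too few reads in all 12 libraries to be tested.

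Across 13782 genes tested, 331 differed between the knockdowns at a limma adjusted p below 0.05, which is 2.4% of all genes. Of these, 225 were higher in siI1 (1.63% of genes) and 106 were lower (0.769%), and 294 code for proteins. A gene that passes this threshold is called different from here on. The 2.4% is the share to set beside each count of called genes in a list below. An unadjusted limma p below 0.05 was seen in 1971 of the 13782 genes. Counts of list members at that unadjusted threshold are to be set beside this share. The 3 siI1 and 3 siI2 values of all 331 did not overlap, as was also true of 2962 genes in all (21.5%), with 13.3% of genes higher in siI1 and 8.16% lower. A difference of at least 1 on the log2 scale was seen in 257 of the called genes and of at least 2 in 23, while the median over all genes was 0.05. The division by direction moved with the scaling of the libraries: with TMM factors and otherwise the same limma test, 208 genes were called higher and 153 lower, against 225 and 106 here. The quasi-likelihood test of edgeR on the recovered reads, which differs in test and scaling together, called 161 higher and 141 lower. The number of calls also rested on each library: it was 127, 143 and 131 without siI1 replicate 1, 2 or 3, 207 without siI2 replicate 1, and 225 and 243 without siI2 replicate 2 or 3. Of the 81 genes called and named by rule in this comparison, 38 were called in all 6 of those fits. None changed sign in any alternative, but leaving out a library could not change a sign, since the groups did not overlap.

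**Figure D1:**
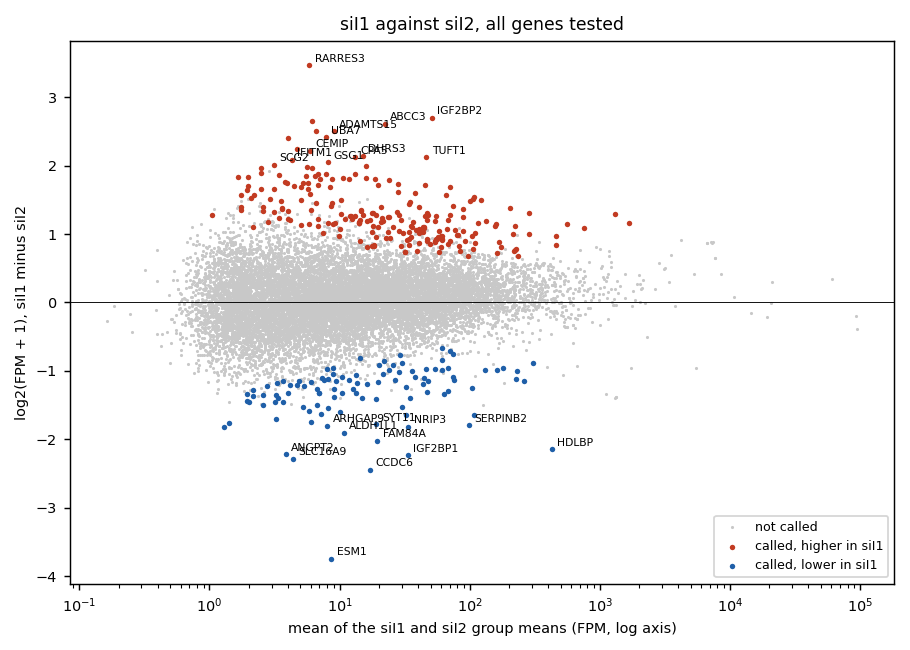
Difference between the knockdowns for all 13782 genes tested, in log2(FPM + 1) of siI1 minus siI2 on the vertical axis, against the mean of both group means in FPM on a log horizontal axis. Red points are the 225 genes called higher in siI1 and blue points the 106 called lower, and the labelled genes are the 12 largest differences in each direction, chosen as described in the text, from RARRES3 at the top to ESM1 at the bottom.

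The 12 largest differences in each direction were taken among called coding or lncRNA genes whose higher group averaged at least 5 FPM and whose groups did not overlap, and they include IGF2BP2 and IGF2BP1. Of the rows whose identifier is not in GENCODE release 29, and which therefore have no gene type, ANXA8, ANXA8L2 and ANXA8L1 had differences as large as several of these (2.66, 2.50 and 2.24). The largest increase in siI1 relative to siI2 belonged to RARRES3, a phospholipase-like protein first found as a gene that responds to retinoic acid. It was at 9.32, 12.3 and 13 FPM in siI1, 0.213, 0.184 and 0 in siI2 and 1.39, 2.59 and 0.135 in siC. The siI2 libraries held only 2 RARRES3 reads in all, against 213 in siI1, so the ratio of 81.9 has a 95% exact interval of 22.4 to 681, counting error only, and the fitted difference of 3.46 depends on the pseudocount (limma adjusted p = 0.000182). DHRS3, a reductase that turns retinaldehyde back into retinol, was at 24.4, 20.0 and 29.6 FPM in siI1 and 7.88, 6.25 and 1.94 in siI2, with the siC libraries at 10.2, 10.0 and 10.3 between them (difference 2.14, limma adjusted p = 0.0033). ABCC3, an efflux pump for organic anions, stood at 42.1, 41.6 and 32.8 FPM in siI1 and 5.32, 5.51 and 5.58 in siI2, a difference of 2.61 (SE 0.32, limma adjusted p = 0.000298). All 3 siI1 values of ABCC3 were above the highest siC value of 11.1 FPM.

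The remaining large increases were of genes with varied roles. ADAMTS15, a protease of the extracellular matrix that cleaves proteoglycans, was at 14.3, 15.5 and 18.1 FPM in siI1 and 1.28, 1.65 and 3.39 in siI2 (difference 2.50, limma adjusted p = 0.000354). CEMIP, which takes part in the breakdown of hyaluronan, was at 11.5, 10.4 and 8.89 and 2.56, 1.65 and 0.485 FPM (difference 2.22, limma adjusted p = 0.00441). CPA5, a carboxypeptidase, differed by 2.12 and TUFT1, first described as a protein of tooth enamel, by 2.12; the means were 21.9 ± 4.29 against 4.21 ± 0.594 FPM and 76.2 ± 4.1 against 16.8 ± 0.251 FPM. For CPA5, TUFT1, ADAMTS15 and CEMIP, the siI2 libraries stood near siC, whose means were 3.23, 19.1, 1.36 and 2.27 FPM. SCG2, a granin of secretory vesicles, was at 5.28, 6.72 and 4.79 FPM in siI1 and 0.426, 0.735 and 0.727 in siI2, where the libraries held 9 reads in all against 104. The ratio of its reads was 8.89, with a 95% exact interval of 4.51 to 20 for counting error only. GSG1 completed the 12 largest increases with UBA7 and IFITM1, which are described with the interferon genes. All of these 12 increases were called in each of the 6 fits without 1 compared library.

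**Figure D2:**
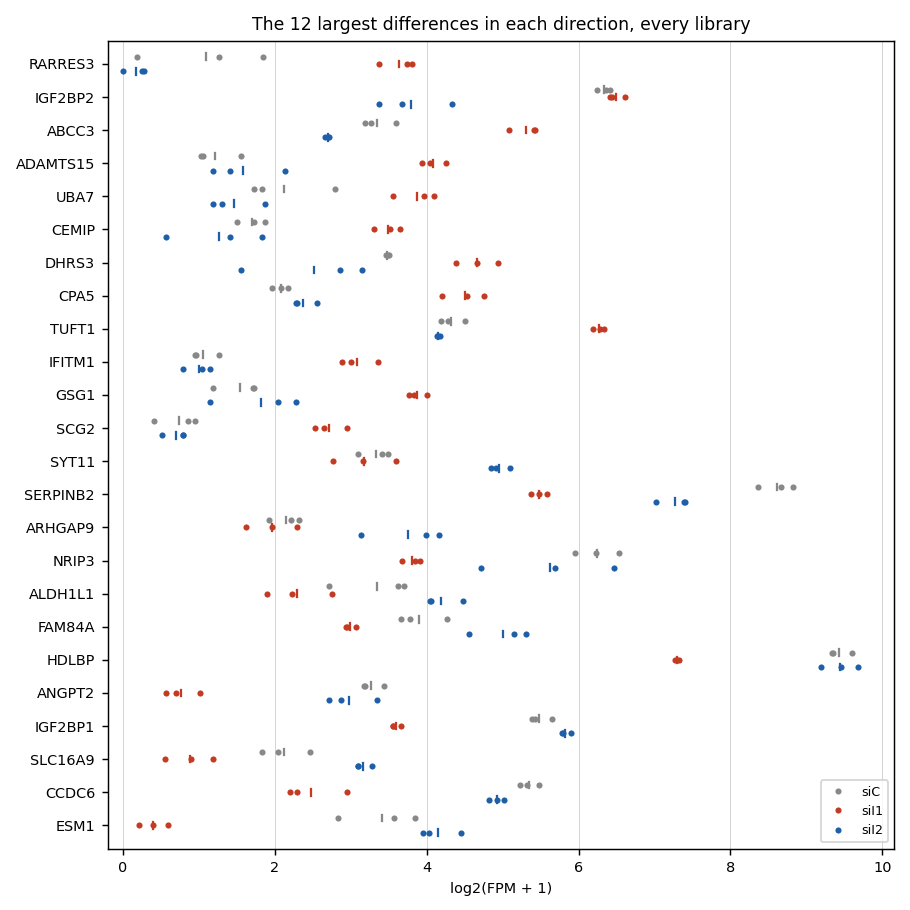
Level in log2(FPM + 1) of the 12 largest increases (upper rows) and 12 largest decreases (lower rows) in every siC (grey), siI1 (red) and siI2 (blue) library, with a short line at each group mean. Red and blue points do not overlap in any row, and the grey control points lie near the blue ones for some genes (TUFT1, HDLBP), near the red ones for others (SYT11, ARHGAP9), and between them for DHRS3.

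The largest decrease in siI1 relative to siI2 was that of ESM1, the secreted proteoglycan endocan. It was at 0.311, 0.16 and 0.513 FPM in siI1, at or under 3 reads in every library, and at 15.3, 14.5 and 20.9 in siI2, with siC at 13.3, 6.15 and 10.8. Its 6 reads in siI1 against 237 in siI2 gave a ratio of 51.4 in favour of siI2, with a 95% exact interval of 23.2 to 141 for counting error only (fitted difference -3.74, limma adjusted p = 4.29e-06). ANGPT2, a secreted ligand of the endothelial receptor TIE2, was at 0.621, 0.48 and 1.03 FPM in siI1 and 5.54, 9.19 and 6.3 in siI2 (difference -2.22, limma adjusted p = 0.000423). Both mRNAs were thus near the limit of detection in siI1 and clearly measured in siI2.

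Among abundant mRNAs the largest decrease was that of HDLBP, which encodes vigilin, a protein built almost entirely of KH domains that binds many mRNAs. HDLBP was at 153, 159 and 156 FPM in the siI1 libraries and at 817, 699 and 584 in the siI2 libraries, with siC at 651, 778 and 645. The 3 siI1 values were tightly grouped and far below the rest, and the difference of -2.15 (SE 0.18, limma adjusted p = 8.63e-06) was about as large as that of IGF2BP1 itself. CCDC6, a coiled-coil protein known from fusions with RET in thyroid carcinoma, was at 3.88, 6.72 and 3.59 FPM in siI1 and 27.3, 29.4 and 31.3 in siI2 (difference -2.44, limma adjusted p = 1.09e-05). For HDLBP and CCDC6, all 3 siI1 values lay below the 9 values of the other groups, siI3 included. With the pool sequences not given in these sources, whether the siI1 pool acts on either mRNA directly was not tested. SLC16A9, of the monocarboxylate transporter family, was at 0.466, 1.28 and 0.855 FPM and 8.73, 7.53 and 7.52 FPM (difference -2.28, limma adjusted p = 0.000425). FAM84A, ALDH1L1, an enzyme of folate metabolism, and NRIP3 differed by -2.02, -1.90 and -1.81 (limma adjusted p = 0.00154, 0.00372 and 0.00463). NRIP3 was uneven in siI2, at 50.5, 87.6 and 25.2 FPM with replicate 3 lowest, but still above the siI1 values of 13.4, 14.1 and 11.8. With SYT11, ARHGAP9 and SERPINB2, described further on, these make up the 12 largest decreases, and all 12 were called in each of the 6 fits without 1 compared library.

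Because the comparison has 2 perturbed sides, the control level shows which group stood apart. For some of the called genes it was siI2. By group means these include SLC2A3, SNAP25, DUSP1, PLXNA2 and MFAP2, which are described in other paragraphs. In siC, siI1 and siI2, SLC2A3 was at 21.7, 25.7 and 9.84 FPM and SNAP25 at 7.2, 9.07 and 2.96. In the same order DUSP1 was at 21, 16.4 and 36.7 FPM, PLXNA2 at 24.8, 20.9 and 39.5 and MFAP2 at 2.08, 2.88 and 7.79. Of these, only MFAP2 was called between siI2 and siC (limma adjusted p = 0.019). For SLC2A3, SNAP25, DUSP1 and PLXNA2 that limma adjusted p was 0.0686, 0.0563, 0.108 and 0.0963. SYT11, a synaptotagmin of vesicle traffic, was at 7.92, 11 and 5.81 FPM in siI1 and 7.54, 10.2 and 9.61 in siC but at 29.2, 33.1 and 27.9 in siI2 (difference between knockdowns -1.78, limma adjusted p = 0.000982). ARHGAP9, a GTPase-activating protein, was at 3.88, 2.08 and 2.91 FPM in siI1, 2.78, 3.99 and 3.65 in siC and 16.8, 14.9 and 7.76 in siI2. CORO1A, an actin-binding coronin usually found in leukocytes, was at 2.33, 2.08 and 2.22, 1.86, 2.91 and 2.71 and 11.9, 8.64 and 8.97 FPM in the same order. Against the shared siC libraries, limma gave -0.16, -0.19 and -0.11 for siI1 (adjusted p = 0.704, 0.72 and 0.827) and 1.62, 1.61 and 1.64 for siI2 (adjusted p = 0.00435, 0.019 and 0.00713). Of 14 leukocyte markers, 2 had enough reads to be tested, and CORO1A was the only one called. The other, CSF1R, was at 2.95, 3.04 and 1.37 FPM in siI1 and 0.852, 1.65 and 0 in siI2 with a difference of the opposite sign (0.98, limma adjusted p = 0.291). CD68 was at 0 in all 6 libraries, and 10 stayed at or below 1 FPM in each of them. In the other direction, TGFBR2, the ligand-binding receptor of TGF-beta, was at 35.6, 48.5 and 35.2 FPM in siI1, 55.9, 39 and 52.8 in siC and 18.5, 14 and 13.3 in siI2, so the siI2 values were the low ones (difference between knockdowns 1.32, limma adjusted p = 0.00463).

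Genes of the extracellular matrix differed in both directions. Collagens and the enzymes that process them, where called, were higher in siI1, while several adhesive glycoproteins were lower. Of 17 collagen chains tested, 2 were called higher and none lower by limma, with a median difference of 0.13. COL5A1, a regulator of fibril diameter, was at 310.1, 278 and 302 FPM in siI1 and 126, 95 and 122 in siI2 (difference 1.38, limma adjusted p = 0.000985). COL1A1, the main chain of fibrillar type I collagen, was at 798, 692 and 761 FPM in siI1 and 311, 237 and 527 in siI2, against 93.5 in siC, so both knockdowns stood above the control (siI1 3.00 and siI2 1.86 on the log2 scale, limma adjusted p = 6.2e-06 and 0.00248, with shared siC libraries). The direct difference of COL1A1 was 1.14 (limma adjusted p = 0.0235). COL4A1, of basement membranes, was at 73.5 ± 14.9 and 41.4 ± 8.47 FPM and COL6A2 at 168 ± 26.5 and 262 ± 41.9 FPM, and neither was called. Of 22 collagen-processing enzymes, 2 were called higher and none lower: LOXL1, a lysyl oxidase that crosslinks elastin and collagen, at 166, 138 and 175 against 67.1, 45.4 and 51.4 FPM (difference 1.54, limma adjusted p = 0.00154), and BMP1, the procollagen C-proteinase, at 49.6 ± 0.759 against 22.9 ± 4.09 FPM (difference 1.10, limma adjusted p = 0.0235). COL1A1 and BMP1 each remained called only without siI2 replicate 3, with an adjusted p of up to 0.115 and 0.106 without another of the 6 libraries, and COL1A1 was not called by edgeR (adjusted p = 0.0787). BMP1 was not called with the replicate number as a block (adjusted p = 0.0507).

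Of 24 matrix glycoproteins and matricellular proteins, 2 were called higher in siI1 and 5 lower, with a median of 0.07 that was -0.02 in edgeR's fit. SPARC, a collagen-binding matricellular protein and the most abundant of them, was at 2325, 2293 and 2307 FPM in siI1, 1165, 887 and 1073 in siI2 and 527, 749.9 and 602 in siC (difference 1.16, SE 0.21, limma adjusted p = 0.00601). EFEMP1, the fibulin family member fibulin-3, was at 24.1, 37.1 and 31.6 and 7.03, 8.27 and 10.7 FPM in siI1 and siI2 (difference 1.72, limma adjusted p = 0.00463). Fibronectin went the other way. FN1 was at 55.6, 50.7 and 49.1 FPM in siI1 and 155, 162 and 174 in siI2, with siC at 139, 129 and 133 (difference -1.64, SE 0.18, limma adjusted p = 0.000147), and no siI1 value approached the lowest siI2 value. TNC, the anti-adhesive glycoprotein tenascin C, was at 125, 119 and 124 FPM in siI1 and 256, 224 and 235 in siI2 (difference -0.96, limma adjusted p = 0.00795). The other 3 decreases were of scarce mRNAs: SMOC1 (0.604 ± 0.373 against 3.28 ± 0.566 FPM), MFAP2 of elastic microfibrils (2.88 ± 1.02 against 7.79 ± 0.88 FPM) and SPP1, osteopontin, with 1 read in siI1 and 40 in siI2. SPARC, EFEMP1 and FN1 were called in all 6 fits without 1 compared library, and TNC was not followed through the alternative fits. SMOC1 was called in 2 of them, without siI1 replicate 3 or siI2 replicate 2, SPP1 in 1, without siI2 replicate 1, and MFAP2 in none (adjusted p of up to 0.0906, 0.102 and 0.221). MFAP2 was not called with the replicate block (adjusted p = 0.067) or by edgeR (adjusted p = 0.0615).

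**Figure D3:**
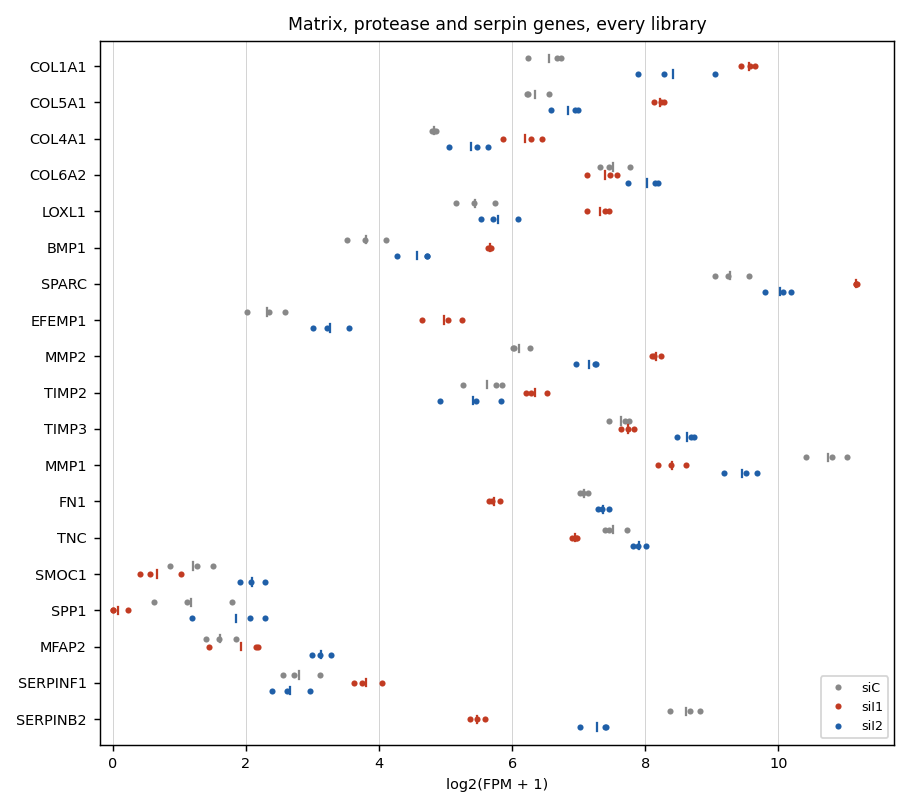
Level in log2(FPM + 1) of 19 matrix, protease and serpin genes in every siC (grey), siI1 (red) and siI2 (blue) library, with a short line at each group mean. SPARC, COL5A1 and LOXL1 are highest in siI1, FN1 and TNC are lowest in siI1, and TIMP3 is highest in siI2.

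The proteases that remodel matrix and their inhibitors differed as well. Of 12 matrix metalloproteinases and TIMPs, 2 were called higher in siI1 and 1 lower, with a median of 0.41. MMP2, a gelatinase, was at 279.7, 274 and 300.2 FPM in siI1, 151, 124 and 152 in siI2 and 64.1, 76 and 63.2 in siC (a difference of 1 on the log2 scale, SE 0.18, limma adjusted p = 0.00519), so the siI2 values lay between the others. TIMP2, which both inhibits and helps activate MMP2, was at 80.1 ± 9.92 and 42.7 ± 13.4 FPM (difference 0.93, limma adjusted p = 0.0473), and it was not called by edgeR (adjusted p = 0.103) or with the replicate block (adjusted p = 0.0649). TIMP3, a matrix-bound inhibitor, was at 213, 227 and 198 FPM in siI1 and 409.9, 424 and 355 in siI2, and the siC values of 175, 205 and 215 resembled siI1 (difference -0.89, limma adjusted p = 0.0104). The collagenase MMP1 was at 338 ± 48.5 against 709 ± 120.4 FPM and was not called (difference -1.06, limma adjusted p = 0.214). MMP2 was called in all 6 fits without 1 compared library, TIMP3 in 4, not without siI1 replicate 1 or 3 (adjusted p of up to 0.0733), and TIMP2 only without siI2 replicate 3 (adjusted p of up to 0.199).

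Among 10 plasminogen activators and serpins, 1 was called higher and 1 lower (2 lower by edgeR and 3 by DESeq2). SERPINB2, the urokinase inhibitor PAI-2, was at 40.4, 43.5 and 47 FPM in siI1, 167, 168 and 129 in siI2 and 451, 328 and 405 in siC. Both knockdowns stood below the control, siI1 the further, and the direct difference was -1.79 (SE 0.18, limma adjusted p = 7.32e-05). SERPINF1, the anti-angiogenic serpin PEDF, was at 13.1 ± 2.18 against 5.38 ± 1.32 FPM (difference 1.15, limma adjusted p = 0.0265). It was called in 1 of the 6 fits without 1 compared library, that without siI2 replicate 1 (adjusted p of up to 0.158 in the others), and not with the replicate block (adjusted p = 0.0593). Of 22 integrin and laminin subunits, 2 were called higher and none lower (1 lower by edgeR and by DESeq2), ITGB5 (285 ± 41.9 against 165 ± 21.7 FPM) and LAMA3 (12.5 ± 0.977 against 5.15 ± 1.18 FPM), with limma adjusted p = 0.0383 and 0.036. Over all scalings and tests compared, up to 3 subunits were called lower. At an unadjusted limma p below 0.05, 4 were higher and 5 lower. ITGB5 was called in none of the 6 fits without 1 library and LAMA3 in 1, without siI2 replicate 2 (adjusted p of up to 0.193 and 0.157), and with the block both missed the threshold (adjusted p = 0.0507 and 0.0679). Of 24 axon guidance genes, the secreted cue SLIT3 was the 1 called higher, at 99.4, 96.6 and 98.6 FPM in siI1 and 34.7, 28.5 and 33.9 in siI2 with siC at 11.5, 15.5 and 13.4 (difference 1.58, limma adjusted p = 0.000298). The semaphorin receptor PLXNA2 was the 1 called lower, at 20.9 ± 2.77 against 39.5 ± 4.65 FPM (limma adjusted p = 0.0291, and 0.0567 with the block), and it was called in 1 of the 6 fits, without siI2 replicate 2 (adjusted p of up to 0.136).

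Fibroblast markers ran beside the matrix genes. Their summed level was 1262 to 1447 FPM in siI1, 509 to 872 in siI2 and 193 to 263 in siC, and 2 of 5 tested were called higher, COL1A1 and the surface glycoprotein THY1 (611 ± 59.5 against 314 ± 55 FPM, difference 0.97, limma adjusted p = 0.0216). The sum consisted mostly of these 2 genes. Of the 5 tested, 4 had a positive difference. PDGFRB was at 12.6 FPM in siI1 and 6.59 in siI2 and PDGFRA at 7.14 and 4.24, and neither was called. Other fibroblast mRNAs were close to absent: DCN, LUM, POSTN and DPT did not pass the filter, and each stayed below 2 FPM in all 6 libraries. THY1 was called in 2 of the 6 fits, without siI2 replicate 1 or 3 (adjusted p of up to 0.12). The part of these markers in the matrix result was not tested.

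Most interferon and antigen presentation genes had a positive difference, with siI1 above siI2, and most chemokine and NF-kB genes a negative one. Of 28 interferon-stimulated genes tested, 24 had a positive difference, as did 55.1% of all genes, and the median was 0.59. Of them, 3 were called higher and 1 lower. IFITM1, which keeps enveloped viruses from entering cells, was at 6.99, 6.4 and 9.23 FPM in siI1, 1.06, 0.735 and 1.21 in siI2 and 0.928, 1.4 and 0.948 in siC (difference 2.08, SE 0.28, limma adjusted p = 0.000712). It is one of a cluster of similar genes, and how reads shared with IFITM2 and IFITM3 were assigned is not known; those genes differed by 0.62 and 0.74 and were not called (limma adjusted p = 0.214 and 0.0828). IRF1, a transcription factor that drives antigen presentation, was at 66.6, 62.8 and 50.9 FPM in siI1, 30.9, 27.6 and 23.8 in siI2 and 22.8, 36.8 and 20.8 in siC (difference 1.10, limma adjusted p = 0.0196). IFI35, an interferon-induced leucine zipper protein, was at 20.4 ± 2.04 against 8.28 ± 1.31 FPM (difference 1.21, limma adjusted p = 0.016). The exception was ISG20, an exonuclease that degrades single-stranded RNA, at 6.83, 5.12 and 4.79 FPM in siI1 and 15.1, 15.6 and 15 in siI2 (difference -1.32, limma adjusted p = 0.0123). IFITM1 was called in all 6 fits without 1 library, and ISG20 in 4, not without siI1 replicate 2 or 3. IFI35 was called in 3, not without siI1 replicate 1 or 3 or siI2 replicate 2, and IRF1 only without siI2 replicate 1 (adjusted p for ISG20, IFI35 and IRF1 of up to 0.0735, 0.0924 and 0.116).

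UBA7, the activating enzyme that starts the attachment of the ubiquitin-like protein ISG15 to other proteins, was among the 12 largest increases. It was at 14.6, 10.7 and 16.1 FPM in siI1, 1.28, 1.47 and 2.67 in siI2 and 2.32, 5.93 and 2.57 in siC (difference 2.41, SE 0.37, limma adjusted p = 0.00226). The siC libraries spread widely and their highest value lay below every siI1 value.

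All 19 genes of MHC class I presentation that could be tested had a positive difference, with a median of 0.38 (0.29 under the scaling that lowered it most), and 2 of them were called. PSMB9, a catalytic subunit of the immunoproteasome, was at 53, 38.7 and 37.3 FPM in siI1, 13.4, 12.7 and 13.6 in siI2 and 17.5, 17.3 and 14.9 in siC (difference 1.61, SE 0.30, limma adjusted p = 0.00672). TAPBPL, an editor of peptides on class I molecules, was at 21.6, 20.1 and 17.3 FPM in siI1 and 6.17, 6.25 and 13.8 in siI2 (difference 1.17, limma adjusted p = 0.0381), where siI2 replicate 3 stood apart from the other 2 siI2 values. PSMB9 was called in 5 of the 6 fits and had an adjusted p of 0.0584 without siI1 replicate 1. TAPBPL was called only without siI2 replicate 3 (adjusted p of up to 0.171 in the others), and it was not called with the replicate block (adjusted p = 0.0753) or by edgeR (adjusted p = 0.105).

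The called chemokines were lower in siI1. Of 22 chemokines, cytokines and NF-kB feedback genes, none was called higher (none at an unadjusted p below 0.05 either) and 3 lower, 7 had a positive difference, and the median was -0.38. CXCL5, a neutrophil attractant, was at 16.3, 11.8 and 16.9 FPM in siI1, 49.2, 37.3 and 62.3 in siI2 and 67.7, 48.5 and 52.2 in siC (difference -1.64, SE 0.25, limma adjusted p = 0.00226). CXCL1, a ligand of the same receptor, was at 30.4, 28.8 and 33.7 FPM in siI1, 68.4, 64.5 and 53.1 in siI2 and 31.3, 37.2 and 33.3 in siC, so here the siI2 values were the ones apart from the control (difference -0.97, limma adjusted p = 0.0152). CXCL3 was at 1.09, 1.12 and 1.54 FPM in siI1 and 4.9, 3.31 and 4.61 in siI2 (difference -1.22, limma adjusted p = 0.0221). CXCL1, CXCL2 and CXCL3 are near-identical neighbours, and reads that they share could have been counted for either; CXCL2 was at 3.88 ± 0.427 and 6.76 ± 1.89 FPM and not called. CXCL8, interleukin 8, was at 12.9, 16.5 and 10.1 FPM in siI1 and 38.5, 54.6 and 16.2 in siI2, far below the 127, 117 and 159.6 of siC in both, and the 2 knockdowns overlapped (difference -1.27, limma adjusted p = 0.261). CXCL5 was called in all 6 fits without 1 library, CXCL1 only without siI2 replicate 3 and CXCL3 only without siI2 replicate 2 (adjusted p of up to 0.0784 and 0.109), and CXCL3 was not called with the block (adjusted p = 0.0507).

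**Figure D4:**
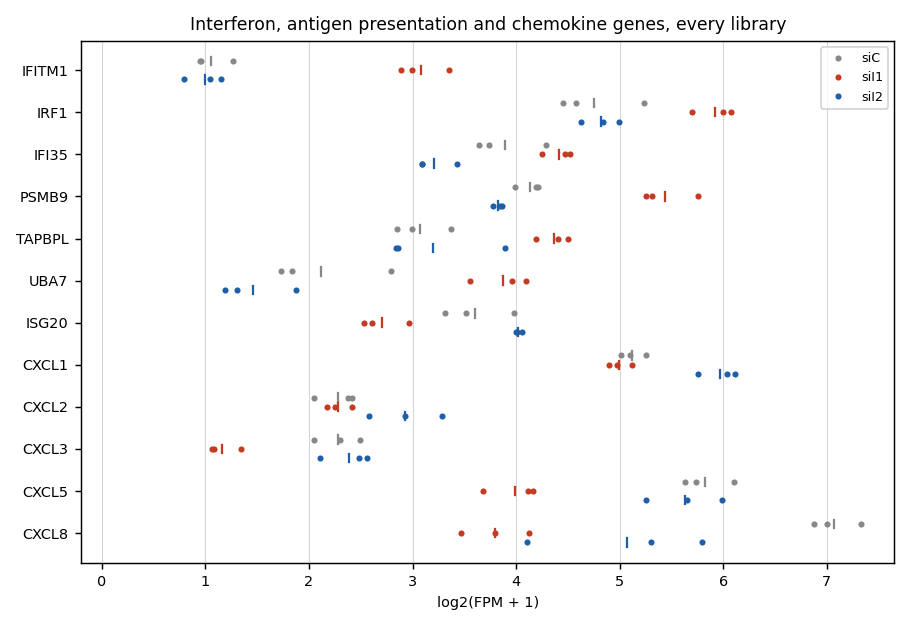
Level in log2(FPM + 1) of 12 interferon, antigen presentation and chemokine genes in every siC (grey), siI1 (red) and siI2 (blue) library, with a short line at each group mean. The rows from IFITM1 to UBA7 have their highest mean in siI1, ISG20 and the called chemokines CXCL1, CXCL3 and CXCL5 are lower in siI1 than in siI2, and the siI1 and siI2 values of CXCL8 overlap.

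The start regions looked up here are those of called interferon, antigen presentation and chemokine genes only. Interferon and NF-kB factors are known to act through short motifs near such starts, and whether they had a part in these differences was not tested. RefSeq start windows of 300 bases on GRCh38.p14 were found for 9 of the 10 genes looked up (not for UBA7), and 3 motifs were searched on both strands: the interferon-stimulated response element, searched as GAAA, any 2 bases and GAAA; the GAS element, searched as TTC, any 3 bases and GAA; and a kB site, searched as GGG, any 2 bases and TTTCC. Of all 35116 windows in that table, 3.57% held the first, 7.66% the second and 1.91% the third. Each stretch below runs 5′ to 3′ on the gene's strand from 140 bases before the annotated start to 10 bases after it, with the matches in capitals.
IFITM1: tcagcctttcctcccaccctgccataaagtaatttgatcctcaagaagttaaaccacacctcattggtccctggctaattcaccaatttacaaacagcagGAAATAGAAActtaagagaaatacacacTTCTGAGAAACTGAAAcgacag
IRF1: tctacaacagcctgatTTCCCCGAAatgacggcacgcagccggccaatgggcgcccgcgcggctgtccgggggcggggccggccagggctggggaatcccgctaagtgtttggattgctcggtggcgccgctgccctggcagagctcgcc
ISG20: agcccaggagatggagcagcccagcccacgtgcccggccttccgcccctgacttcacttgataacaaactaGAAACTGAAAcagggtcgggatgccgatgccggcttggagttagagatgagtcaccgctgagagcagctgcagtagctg
CXCL5: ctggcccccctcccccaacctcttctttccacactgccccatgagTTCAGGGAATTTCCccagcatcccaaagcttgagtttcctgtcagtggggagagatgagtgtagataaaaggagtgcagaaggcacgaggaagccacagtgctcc
CXCL1: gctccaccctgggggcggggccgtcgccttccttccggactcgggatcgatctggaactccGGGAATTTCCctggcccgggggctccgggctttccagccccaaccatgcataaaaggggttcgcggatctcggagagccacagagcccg
CXCL3: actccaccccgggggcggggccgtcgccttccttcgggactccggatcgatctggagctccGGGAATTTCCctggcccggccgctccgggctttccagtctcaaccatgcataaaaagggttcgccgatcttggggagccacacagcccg
The IFITM1 stretch (chr11:313900-314049, plus strand) held 2 response elements, whose first bases lie 40 and 6 bases before the start, and a GAS match beginning 12 bases before it that overlaps the second element. IRF1 (chr5:132490764-132490913, minus strand) held a GAS match 124 bases before its start. ISG20 (chr15:88638876-88639025, plus strand), the interferon-stimulated gene that was lower in siI1, held a response element 69 bases before its start, so genes with this motif differed in both directions. All 3 called chemokines held a kB match, 91 bases before the start in CXCL5 (chr4:73998668-73998817, minus strand), where it overlaps a GAS match, and 79 bases before it in both CXCL1 (chr4:73869253-73869402, plus strand) and CXCL3 (chr4:74038680-74038829, minus strand). The CXCL1 and CXCL3 stretches were identical at 136 of 150 positions. IFI35 held a GAS match 22 bases before its start, a second start of TAPBPL held a kB match 65 bases before it, and in the PSMB9 window none of these letters was found. The windows of the uncalled chemokines CXCL2 and CXCL8 were not looked up, so whether kB matches go with the calls was not tested. These matches describe sequence only, and no binding was measured.

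Secreted growth factors and their receptors differed in part. Of 21 angiogenic genes, 2 were called higher and 3 lower, with a median of -0.33. Beside ESM1 and ANGPT2, the growth factor FGF5 was lower in siI1, at 2.17, 5.12 and 3.42 against 8.52, 8.82 and 11.9 FPM (difference -1.27, limma adjusted p = 0.0228). VEGFB, of the VEGF family, was higher, at 57.8, 55.2 and 52.8 against 29, 28.1 and 23.5 FPM (difference 1.02, limma adjusted p = 0.0117), as was PDGFB, a platelet-derived growth factor chain, at 33.2, 26.4 and 30.1 against 14.7, 13 and 9.21 FPM (difference 1.23, limma adjusted p = 0.0201). VEGFA was at 64.4 ± 0.332 and 39.1 ± 3.27 FPM and was not called (limma adjusted p = 0.0625). FGF5 was called without siI1 replicate 2 or siI2 replicate 2, PDGFB without siI2 replicate 1 or 2, and VEGFB without any siI2 library but not without any siI1 library (adjusted p of up to 0.148, 0.118 and 0.0724). The line itself carries endothelial mRNAs, with CDH5 at 140.4 ± 8.05 and 114 ± 10.2 FPM and TIE1 at 167 ± 23 and 218 ± 42. None of the 4 tested endothelial markers was called by limma or edgeR or had an unadjusted limma p below 0.05, and TEK, CLDN5 and EMCN stayed below 1 FPM.

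Of 18 receptor tyrosine kinases, 2 were called higher in siI1 and none lower. AXL, a receptor linked to invasion and drug tolerance, was at 1984, 1748 and 1804 FPM in siI1, 855, 632 and 774 in siI2 and 736, 1217 and 824 in siC (difference 1.30, SE 0.23, limma adjusted p = 0.00572). ROR1, a receptor for WNT5A, was at 12.9 ± 1.75 FPM in siI1 and 2.79 ± 0.404 in siI2 (difference 1.87, limma adjusted p = 0.00312), and siC resembled siI2 at 3.59, 2.91 and 2.57. Both were called in all 6 fits without 1 library. All 5 EGF family ligands tested had a negative difference, and HBEGF was the 1 that was called, at 46.4, 56 and 40.0 FPM in siI1, 115, 113 and 87 in siI2 and 114, 125 and 125 in siC (difference -1.13, limma adjusted p = 0.00572, and 0.0517 without siI1 replicate 3). Over all scalings and tests compared, 1 to 4 of 20 ERK feedback genes were called lower and up to 1 higher. In the main fit only the phosphatase DUSP1 was called (edgeR called 2 lower), lower in siI1 at 16.4 ± 3.88 against 36.7 ± 4.04 FPM (difference -1.14, limma adjusted p = 0.0324). Its call was lost without any 1 of the 6 libraries (adjusted p of up to 0.188). Of 22 immediate early genes only the transcription factor KLF4 was called, at 8.7, 6.72 and 9.06 FPM in siI1, 2.13, 1.29 and 2.18 in siI2 and 5.45, 5.5 and 2.71 in siC (difference 1.68, limma adjusted p = 0.00862, and up to 0.0583 without siI1 replicate 1 or 3).

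Targets of YAP and TEAD, the transcription factors at the end of the Hippo pathway, included 5 genes called higher in siI1 and none called lower among 29 tested, with a median of 0.30. Over the scalings and tests compared, 2 to 5 were called higher and up to 1 lower. At an unadjusted limma p below 0.05, 6 were higher and 3 lower. The text below gives the 5 called by the main fit. They were AXL, the LIM protein AJUBA (217, 223 and 213.5 against 127, 122 and 106 FPM), the ectonucleotidase NT5E (103, 94.2 and 127 against 54.3, 45.8 and 62.6 FPM), tissue factor F3 and WWTR1, which encodes the YAP paralog TAZ itself (12.6, 9.75 and 12.1 against 2.98, 4.96 and 6.3 FPM). The limma adjusted p was 0.0198 for AJUBA, 0.0303 for NT5E, 0.0237 for F3 and 0.0384 for WWTR1. F3 rested on 55 reads in siI1 and 7 in siI2. For NT5E and WWTR1 the siI2 level was the one apart by group means, since siC stood at 205, 121 and 154 and 9.28, 10.2 and 13.3 FPM. Between siI2 and siC, NT5E was called and WWTR1 was not (limma adjusted p = 0.00435 and 0.0609). The widely used targets CYR61 and CTGF were at 165 ± 13.1 against 145 ± 22.2 FPM and 64.5 ± 7.23 against 89.4 ± 1.33 FPM, and neither was called. AXL apart, each of these calls remained in only 1 of the 6 fits without 1 library: AJUBA without siI2 replicate 1, and NT5E, F3 and WWTR1 without siI2 replicate 3 (adjusted p of up to 0.0938, 0.172, 0.114 and 0.171 in the others). WWTR1 was not called by edgeR (adjusted p = 0.0885) or by limma with RLE, upper-quartile or TMM factors.

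SRF, the serum response factor that drives cytoskeletal genes and whose mRNA IGF2BP1 has been reported to bind, was lower in siI1. It was at 40.2, 29.6 and 37.4 FPM in siI1, 108, 75.7 and 91.7 in siI2 and 57.9, 91.2 and 73.5 in siC (difference -1.33, SE 0.22, limma adjusted p = 0.00352), and it was called in all 6 fits. Of the 23 genes on the SRF and MRTF list, SRF was the 1 called lower and the actin-binding calponin CNN2 the 1 called higher (409.6, 352 and 381 against 201, 164 and 207 FPM, limma adjusted p = 0.0211, called only without siI2 replicate 3 among the 6 fits, up to 0.116 in the others). The list's median was 0.21, of the opposite sign to SRF. Of 33 TGF-beta ligands, receptors, SMADs and targets, 4 were called higher and none lower, with a median of 0.04 that was negative under the scaling that lowered it most (-0.05). With TGFBR2 these were BMP4, a bone morphogenetic protein (5.43, 6.4 and 5.13 against 1.28, 2.02 and 0.97 FPM), SMAD6, an inhibitory SMAD (11.2, 11.2 and 16.6 against 3.41, 4.96 and 4.36 FPM), and SMAD3, which carries the TGF-beta signal (295, 307 and 261 against 187, 176 and 172 FPM). The limma adjusted p was 0.0152 for BMP4, 0.017 for SMAD6 and 0.0414 for SMAD3. TGFBR2 was called in all 6 fits, BMP4 only without siI2 replicate 2, SMAD6 without siI2 replicate 2 or 3, and SMAD3 in none (adjusted p of up to 0.0795, 0.117 and 0.184), and with the block SMAD3 had an adjusted p of 0.0649.

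Among 13 keratins and epithelial genes, KRT8 (162, 131 and 149 against 83.9, 67.3 and 65.7 FPM) and KRT80 (226, 203 and 210.4 against 101, 89.3 and 105 FPM), both intermediate filament proteins, were called higher and none lower, with a median of 0.49 (limma adjusted p = 0.0152 and 0.0129). KRT8 remained called without siI1 replicate 2 or siI2 replicate 1, and KRT80 was lost without siI1 replicate 1 or 3 (adjusted p of up to 0.0938 and 0.0759). Of 12 EMT transcription factors and cadherins the repressor SNAI2 was the 1 called, higher at 13.9 ± 1.26 against 6.21 ± 1.63 FPM (limma adjusted p = 0.0423). It was called in none of the 6 fits (adjusted p of up to 0.177) nor with the replicate block (adjusted p = 0.0852).

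The study's title concerns miRNA-directed regulation, so the mRNAs tied to it were read separately. Of 18 mRNAs reported in the literature to bind IGF2BP1, SRF was called lower and PEG10, a retrotransposon-derived gene, higher, at 78.1, 89.2 and 77.3 against 34.5, 38.2 and 52.9 FPM (difference 0.97, limma adjusted p = 0.0144, called only without siI2 replicate 3 among the 6 fits and up to 0.0807 in the others). ACTB, whose zipcode gave the family its first name, was at 2030.0 ± 157 and 2016 ± 12.9 FPM, and CD44 at 166 ± 66.8 and 161 ± 48.2 FPM, with differences of 0.01 and 0.02 that were not called. Of 24 let-7 targets and oncofetal mRNAs, the only called members were IGF2BP1 and IGF2BP2, which the siRNAs targeted, and PEG10. DICER1, which cuts miRNA precursors, was at 14.4, 23 and 21 FPM in siI1, 5.11, 9.19 and 11.4 in siI2 and 24.6, 11.3 and 25.2 in siC, without overlap but not called (difference 1.13, limma adjusted p = 0.08). None of the 38 genes of the miRNA and mRNA decay machinery was called by limma, edgeR or DESeq2 (9 had an unadjusted limma p below 0.05), and 3 were called after correction for GC content and length. None of the 10 genes of the IGF system was called by limma or edgeR (1 had an unadjusted limma p below 0.05), and 1 was called lower by DESeq2. Over all genes tested limma called 2.4%, so few calls would fall in lists of these sizes at that share. An unadjusted limma p below 0.05 was seen in 1971 of all 13782 genes.

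Sites for miRNAs were read in the longest annotated 3′ UTR of each gene, as matches to the bases that pair with the seed (bases 2 to 8, in capitals). The mature sequences of let-7, the family most tied to the IGF2BPs, and of miR-29, which targets collagens and other matrix mRNAs, are from RefSeq.
hsa-let-7a-5p: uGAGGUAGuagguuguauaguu
hsa-miR-29a-3p: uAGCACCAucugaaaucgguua
Genes with at least 1 let-7 match (CTACCTC) numbered 1462, and 22 were called higher and 15 lower in siI1, which is 2.53% of them. The share was 2.61% over all 11303 genes with a 3′ UTR. The median difference of genes with a let-7 match was 0.06, and 0.03 for the 190 genes with at least 2 matches, against 0.05 over all of these genes. Of 2216 genes with at least 1 miR-29 match (TGGTGCT), 50 were called higher and 20 lower, or 3.16%, with a median of 0.06, and of 409 genes with at least 2 matches, 12 and 5 were, or 4.16%, with a median of 0.03. Genes with matches had longer 3′ UTRs, with a median of 3213 bases for let-7 and 3036 for miR-29 against 1674 over all, and the part of that length in these shares was not tested. No miRNA was measured in these libraries.

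The metabolic and stress lists held 1 or 2 limma calls each. These were 6.45% of the glycolysis and hypoxia genes, 5.56% of the stress response genes and 8.33% of the NAD metabolism genes. Over all genes tested the share was 2.4%. Of 31 glycolysis and hypoxia genes, 25 had a positive difference, the median was 0.47, and 2 were called higher (6 by DESeq2): BNIP3, a hypoxia-induced mitophagy receptor, at 81.7, 67.5 and 88 against 40.2, 34.4 and 38.6 FPM (difference 1.04, limma adjusted p = 0.00406), and SLC2A3, the glucose transporter GLUT3, at 25.2, 29.9 and 22.1 against 7.88, 11.2 and 10.4 FPM (difference 1.30, limma adjusted p = 0.0215). BNIP3 was called in all 6 fits and SLC2A3 without siI2 replicate 2 or 3 (adjusted p of up to 0.108 in the others). Of 36 genes of the unfolded protein response and the integrated stress response, 9 had a positive difference and the median was -0.23. Limma called 1 lower and 1 higher, but edgeR and limma with RLE, upper-quartile or TMM factors called 3 lower, DESeq2 4 and limma after the GC and length correction 6. The amino acid transporter SLC7A5 was called lower, at 155, 134 and 138 against 329.8, 266 and 335 FPM (difference -1.11, limma adjusted p = 0.0152), and the secreted hormone STC2 higher, at 77, 64.9 and 79.5 against 41.9, 33.8 and 38.8 FPM (difference 0.93, limma adjusted p = 0.0122). SLC7A5 remained called without siI2 replicate 2 and STC2 was lost without siI1 replicate 1 or 3 or siI2 replicate 2 (adjusted p of up to 0.0768 and 0.082). Of 12 genes of NAD metabolism the ectoenzyme BST1 was called higher, at 22.8 ± 1.1 against 9.68 ± 2.52 FPM (limma adjusted p = 0.0336, called only without siI2 replicate 2 among the 6 fits, up to 0.144 in the others, and 0.0622 with the block).

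None of the 40 histone genes, 78 cytosolic ribosomal protein genes, 58 nuclear-encoded respiratory chain genes, 38 genes of G2 and mitosis or 9 of prostaglandin synthesis was called by limma, edgeR or DESeq2, and their medians lay between -0.12 and 0.17. In the same order, 0, 1, 3, 3 and 1 of them had an unadjusted limma p below 0.05. None of 31 cholesterol and fatty acid synthesis genes and 15 circadian clock genes was called by limma or edgeR, with 5 and 2 at an unadjusted limma p below 0.05. In 20 m6A genes, 49 other RNA-binding proteins, 38 genes of G1/S and DNA replication and 21 p53 targets, limma called none (1, 5, 9 and 5 had an unadjusted p below 0.05) and edgeR called 1 lower in each. Over all scalings and tests compared, up to 3 G1/S genes were called lower and 1 higher, and up to 2 p53 targets lower. Limma called 2.4% of all genes tested, so lists of these sizes would hold few calls at that share. Of all 13782 genes, 1971 had an unadjusted limma p below 0.05. HDLBP, the RNA-binding protein with the large decrease, is not among those 49. Of 5 neuronal markers tested, 2 were called higher, MAP2 (8.37 ± 1.21 against 3.28 ± 0.978 FPM) and the synaptic protein SNAP25 (9.07 ± 0.685 against 2.96 ± 0.42 FPM), with limma adjusted p = 0.0384 and 0.0106. NEFL, the most abundant of these markers, went the other way, at 32.9 FPM in siI1 and 44.5 in siI2, and was not called. Of the 5 tested, 3 had a positive difference. GAP43 was at 0 in all 6 libraries and the summed level of the 11 markers overlapped, at 51 to 68.5 FPM in siI1 and 53.1 to 59.9 in siI2. MAP2 was called only without siI2 replicate 2 and SNAP25 not without siI1 replicate 2 or 3 (adjusted p of up to 0.181 and 0.0612), and MAP2 was lost with the block (adjusted p = 0.0702) and by edgeR (adjusted p = 0.0765).

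**Figure D5:**
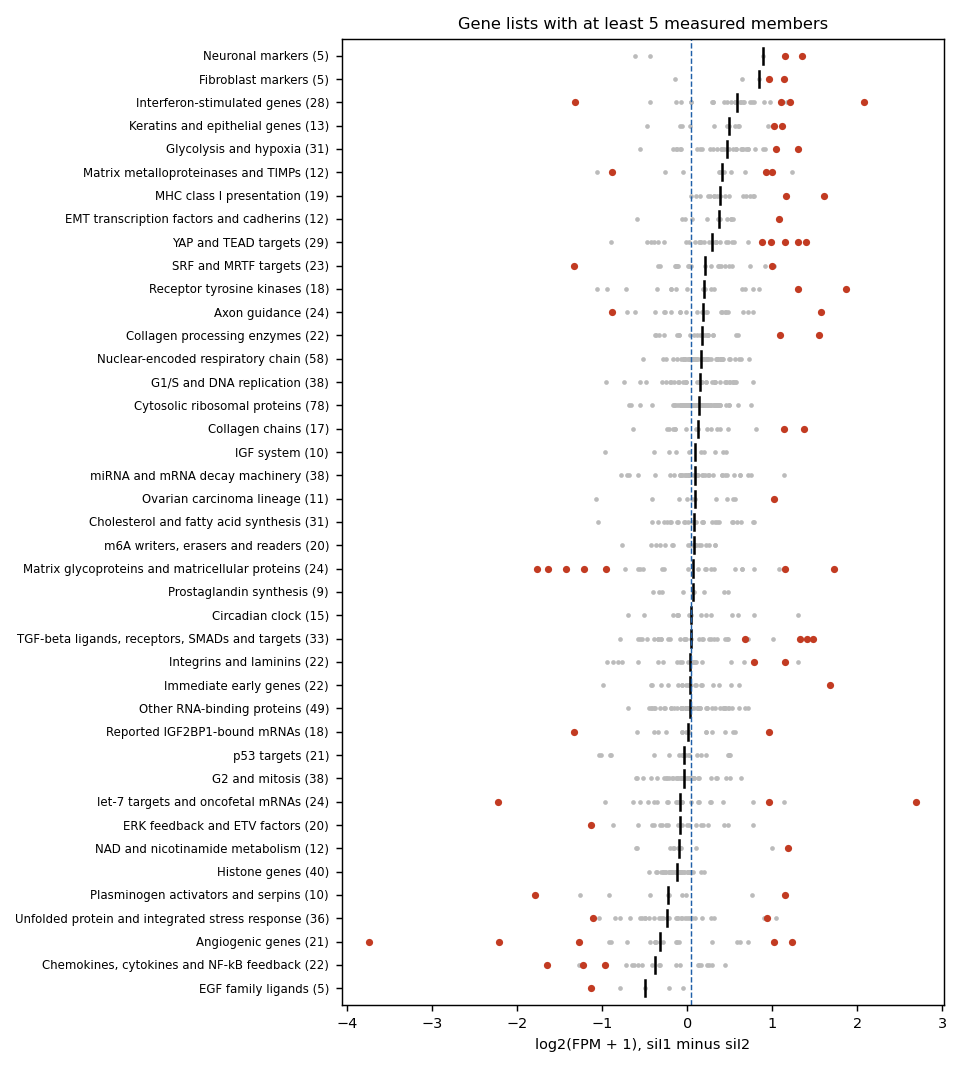
Difference in log2(FPM + 1) of siI1 minus siI2 for the tested members of each gene list with at least 5 of them, 1 list a row, with the number tested in parentheses. Red points are called genes, grey points are not called, the black line is the list's median and the dashed line the median of all genes (0.05). Rows are ordered by median, with neuronal and fibroblast markers and interferon genes at the top and EGF ligands and chemokines at the bottom.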

How the data were processed

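Total RNA of 12 ES-2 libraries was measured, 3 per siRNA group, and the 6 siI1 and siI2 libraries are compared here. Per the labels' protocols, ribosomal RNA was removed and random hexamers primed the cDNA. Per the submitters' processing notes, cutadapt 1.6, TopHat2 2.0.13 on hg19, featureCounts 1.4.6 and edgeR 3.12 were used; the sources used here name no strand setting or annotation. The deposited table holds FPM per library for 57865 features, of which 92 are ERCC spike-ins and were left out. The authors describe this signal as normalized to library size, but its sum differed between libraries. Every value was a whole multiple of 1 read (100%, tolerance 0.01), so reads could be recovered.

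Since FPM are not counts, the main test was limma 3.58.1 (R 4.3.3) on log2(FPM + 1) with its variance trend (eBayes, trend on); this scale understates differences of low genes. All 12 libraries gave the spread, filterByExpr on recovered reads (minimum count 10) left 13782 genes, and Benjamini-Hochberg adjustment ran over all of them. For 52338 features the symbol is that of the same identifier in GENCODE release 29; the others kept the table's name. Alternatives were edgeR 4.0.16, DESeq2 1.42.0 and voom on recovered reads, other scalings, pseudocounts (0.25 and 4) and filters, a minimum fold of 1.5, coding genes only, the 6 libraries only, no control libraries, a replicate block, a loess correction for GC content and length (span 0.5), and leaving out each library. The limma procedure was tested on simulated data.

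The same replicate number went with correlated deviations from the group means in siI1 and siI2 (r = 0.20, 0.45 and 0.18 for replicates 1, 2 and 3). Differently numbered libraries had r from -0.32 to 0.15, the highest for siI1 replicate 1 with siI2 replicate 3. Only replicate 2 stood clearly apart, so whether the numbers pair the libraries is not settled. The main test did not use the numbers, and the blocked value is given where it changes a call. Libraries of a group differed by more than sampling noise, at 10.8 to 53.2 chi-square units per degree of freedom. Intervals for ratios of reads are exact conditional binomial intervals. The members, gene lists and naming rule were chosen with earlier results of these data known. Named by rule were the IGF2BPs, HMGA2, LIN28B and MYC, the 12 largest differences each way (called, coding or lncRNA, groups not overlapping, the higher group averaging 5 FPM or more), and up to 6 called members per list, or 2 abundant members where none was called; other genes were named after their values were seen. Matches to miRNA seeds were read in GENCODE release 29 transcripts, and start windows in RefSeq.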

Additional observations from a re-analysis of the deposited data

How the results depend on the processing

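The number of called genes, 331, lay between 237 and 374 under voom, RLE, upper-quartile and TMM factors, both pseudocounts, a mean of at least 5 FPM, coding genes only, the 6 libraries only and no control libraries, and it was 302 by edgeR. It was 554 by DESeq2, 172 with no filter on low values, 27 for a minimum fold of 1.5, 663 after correction for GC content and length and 532 with that correction and the replicate block. The share of called genes that were higher in siI1, 68%, was 53.3% by edgeR, 57.2% by DESeq2, 61.2% by voom, 61% with RLE, 58.9% with upper-quartile and 57.6% with TMM factors, 57.2% after the GC and length correction and 59% with that correction and the block; the cause was not tested. Without 1 library in turn the count ran from 127 (siI1 replicate 1) to 375 (siC replicate 2), with 2 libraries left in the shortened group and its spread shared with the others, and the share ran from 63% to 72.9%. IGF2BP1 and IGF2BP2 were called in every alternative, at -2.40 to -1.98 and 2.45 to 2.97.

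With the replicate number as a block, which pairs libraries of the same number, 244 genes were called (169 higher, 75 lower). Of the 81 genes called and named by rule, 13 were lost, at a limma adjusted p of 0.0507 to 0.0852. Each is given with its gene, and no other call among the 81 changed. Of those 81, 19 were called in every alternative, the minimum fold included, 81 after the GC and length correction and 71 by edgeR, which also lost LAMA3, SMAD3, SNAI2 and BST1 (adjusted p = 0.07, 0.0633, 0.0756 and 0.0648). Limma with the 6 libraries only kept 73, voom 64 and limma with no filter on low values 52. Limma with RLE, upper-quartile or TMM factors lost WWTR1, TIMP2 and TAPBPL, and with upper-quartile or TMM factors SNAI2 as well. The 17 lost by voom (voom adjusted p of up to 0.129) include BMP4, F3, FGF5, NT5E, SLC2A3, SMOC1, SNAP25 and SPP1. Without siC replicate 1, WWTR1, SNAI2, MAP2, ITGB5, MFAP2 and TAPBPL were lost (adjusted p = 0.0502 to 0.055), and without siC replicate 3, WWTR1, TIMP2, MAP2, ITGB5, BST1, MFAP2 and SMAD3 (adjusted p = 0.0501 to 0.061). Precision is limited by 3 libraries a group and by depth: the group with the lower level held 2 reads of RARRES3, 1 of SPP1 and 7 of F3 in all.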

Other observations

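Some further genes outside the lists above were picked here after their values were seen, and nothing is claimed for them as a group. They are not among the 81 genes named by rule, and whether their calls hold in the alternative fits was not examined. VSIR, the checkpoint protein VISTA, was at 33.5, 17 and 26.3 FPM in siI1, 10.6, 5.7 and 2.42 in siI2 and 1.74, 1.4 and 0.948 in siC (difference 2.00, limma adjusted p = 0.0104). CD70, the ligand of CD27, was at 75.5, 50.5 and 72, 31.7, 22.2 and 30.3 and 16.8, 26 and 16.6 FPM in the same order (difference 1.20, limma adjusted p = 0.017), and PVR, the poliovirus receptor bound by TIGIT, at 302, 312 and 301, 171, 129.7 and 123 and 121, 148 and 116 FPM (difference 1.12, limma adjusted p = 0.0041). The cytokine receptors IL7R and IL15RA were at 51.1 ± 4.15 against 18.5 ± 6.42 FPM and 13.2 ± 3.1 against 4.14 ± 0.84 FPM (limma adjusted p = 0.00329 and 0.00765). UBE2L6, which follows UBA7 in the attachment of ISG15, was at 96 ± 7.51 FPM in siI1 and 41.2 ± 5.41 in siI2 (difference 1.20, limma adjusted p = 0.0104).

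ANXA2, an annexin that binds membranes in a calcium-dependent way, was at 980.2, 1047 and 1044 FPM in siI1 and 472, 478 and 496 in siI2, with siC at 557, 783 and 769 between them (difference 1.08, limma adjusted p = 0.00765). The rows ANXA8, ANXA8L1 and ANXA8L2 differed by 2.66, 2.24 and 2.50 (limma adjusted p = 0.000139, 0.00441 and 0.000425), but they are near-identical copies whose reads cannot be assigned with certainty, so they do not count as separate genes. KIF5C, a kinesin heavy chain, was lower in siI1, at 3.26, 2.24 and 3.42 FPM against 11.3, 9.19 and 13.6 in siI2, and siC resembled siI1 at 2.32, 2.91 and 3.38 (difference -1.63, limma adjusted p = 0.0041). TXNIP, an arrestin-like protein that restrains glucose uptake, was at 49.4, 77.1 and 46 FPM in siI1 and 18.1, 22.6 and 13.8 in siI2 (limma adjusted p = 0.0107).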
